A study of Mus musculus with 12 samples.

Results

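The homeobox genes described here are 56 developmental transcription factor genes that lie outside the Hox clusters, among them paired-box genes, out of 48795 genes in the deposited count table. They were taken by gene name: 9 of the LIM-homeodomain class, 19 of the NK class and its linked genes (Nkx, Msx, Barx, Barhl, Dbx, Lbx, Tlx and En), 6 of the Emx, Gsx and Gbx families, 6 of the paired-like class, 6 of the Pax family, 5 of the Iroquois family, 3 of POU class 4 and 2 of the sine oculis family (Six2 and Six3). The RNA came from the piriform cortex, the olfactory cortex of the ventral forebrain, of 12 C57BL/6 mice aged 12 months. Of these, 6 were heterozygous for Q140, a knock-in allele that puts an expanded CAG repeat into Htt, the Huntington's disease gene, and 6 were wild type (WT). Each genotype had 3 females and 3 males, and each library is 1 animal. The knock-in is present in every cell, so the allele is not limited to a cell type.

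A homeodomain protein binds DNA through a helix-turn-helix fold, and most of these factors act in the embryo, where combinations of them divide the neural tube, the retina, the craniofacial mesenchyme and the gut into regions. Partners of other families give them specificity: TALE proteins such as Meis and Pbx bind DNA beside them, Ldb proteins bridge LIM-homeodomain factors, Groucho proteins carry repression for many NK, En and sine oculis factors, and Eya proteins are coactivators of the sine oculis family. In the adult cortex a few remain on in defined cells, such as Emx1 in excitatory neurons and Nkx6-2 in oligodendrocytes, while genes that pattern the hindbrain, the sensory ganglia or the gut are silent there. In many cell types such silent genes carry polycomb marks over promoters rich in CG dinucleotides.

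Library totals ranged from 19587208 to 35198602 reads in Q140 and from 24068582 to 33191541 in WT. Levels are given as CPM, reads scaled to the library size. A gene without reads could still have had a level of 0.149 CPM in the smallest library, or of 0.0856 CPM in the largest, by the limit of 3 counts at 95% confidence, which covers counting error only. Htt, the check of genotype, averaged 152 ± 8.32 CPM in Q140, between 143 and 164 CPM, and 195 ± 8.06 CPM in WT, between 180 and 203 CPM (SD, n = 6 each), and fell by 0.36 on the log2 scale in Q140 (SE 0.04, edgeR adjusted p = 0.000163). Reads of the mutant and the normal allele are added in this count. Markers of excitatory neurons, the main neuron class of the cortex, summed to between 4918 and 5447 CPM in Q140 animals. In WT animals they summed to between 5806 and 7758 CPM. Of the 7 markers, 2 were lower in Q140 (edgeR adjusted p below 0.05), against 4.47% of all genes tested. WT animal 6 stood apart in tissue markers: its striatal projection neuron markers summed to 544 CPM, against 963 to 2288 CPM in the other WT animals and 833 to 1475 CPM in Q140 animals. Meningeal markers summed to 34.5 CPM in WT 3, against 140 to 473 CPM in the other WT animals and 191 to 499 CPM in Q140 animals. In tissue RNA, fewer cells of a type and less RNA per cell cannot be told apart.

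Of the 56 genes, 4 (Pax3, Pitx1, Dbx1 and Nkx2-4) had no read in any animal, 10 had 1 to 9 reads over the 12 animals and 42 had at least 10 reads and were tested. The filter did not look at genotype, and 29 of the 42 also passed edgeR's stricter filter by genotype. A gene can still reach 10 reads through 1 genotype alone. In Q140 and WT, Barx1 had 49 and 0 reads, Pou4f2 40 and 3, Lhx5 36 and 8, Lbx1 12 and 3, and Otp 9 and 12. Barx1 and Pou4f2, which the stricter filter removes, are among the genes counted as risen below. The same minimum of 10 reads held for all genes, of which 23755 reached it. Of the 42 genes tested, 10 rose in Q140, or 23.8%, and 0 fell (edgeR adjusted p below 0.05). Over all genes tested, 3.15% rose and 4.47% fell. That is 748 genes higher and 1062 lower, a split that turned with library totals alone as the scaling, at 1365 higher and 755 lower. At an unadjusted p below 0.05 another 2 homeobox genes, Emx1 and Barhl2, were lower and 2, Lhx5 and Gbx2, were higher, against 22% of all genes at that level in either direction. DESeq2 called 8 of the 42 higher and the same 2 lower, against 4.23% and 6.05% of all genes. It gave no adjusted p for some of the 42, Barx1 and Pou4f2 among them. With edgeR's filter by genotype 8 of 29 were higher and 1 lower, against 4.5% and 6.69% of all genes. With no filter, which drops only the 4 genes without a read, 10 were higher and 2 lower, against 2.75% and 3.98%. The median log2 fold change of the 42 genes was 0.42, against 0.0050 over all genes tested, and 30 were positive and 12 negative, against 51.1% positive over all genes. Barx1, which had no WT read, lies above that median also with its WT reads set at a floor of 3 counts. The median of 0.42 could therefore not change.

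**Figure D1:**
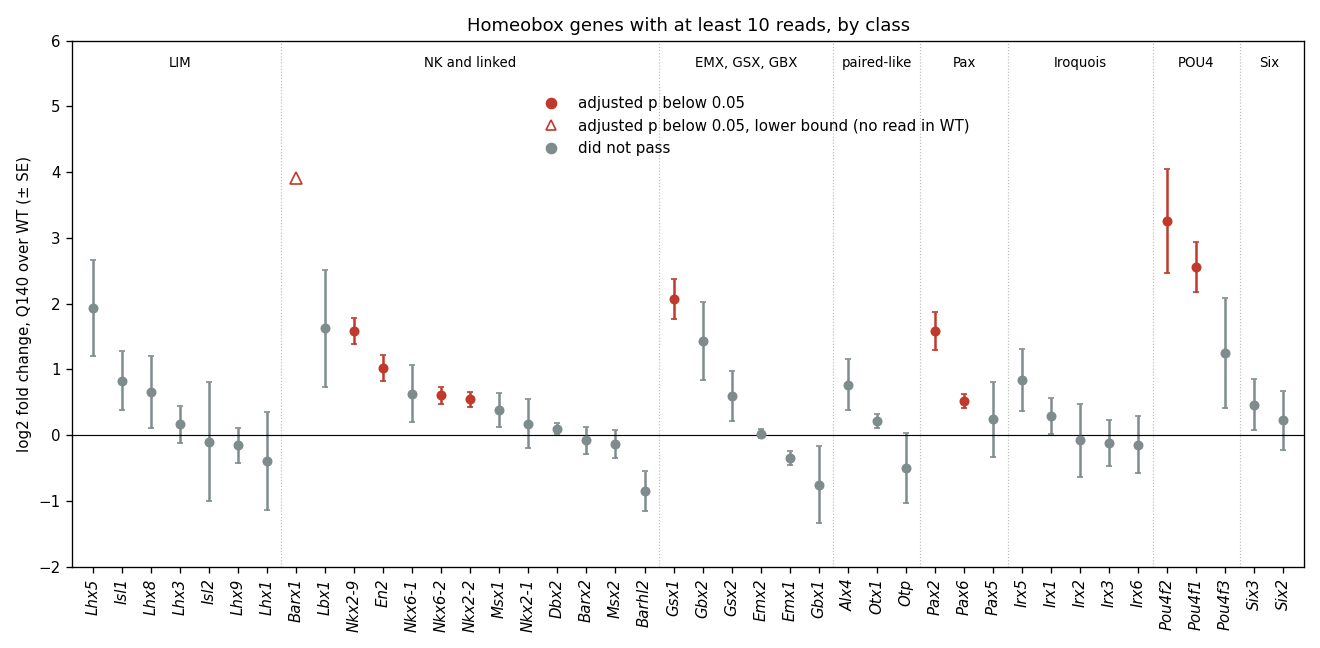
Log2 fold changes, Q140 over WT, with SE, of the 42 homeobox genes tested, by class and ordered by size within each class. Filled red points and the open triangle passed at an adjusted p below 0.05, grey points did not, and the triangle is the lower bound of Barx1. The 10 genes that passed all lie above 0 and belong to 4 of the 8 classes shown.

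The 10 genes that rose were Nkx2-9, En2, Nkx6-2, Nkx2-2 and Barx1 of 13 tested NK and linked genes, Gsx1 of 6 Emx, Gsx and Gbx genes, Pax2 and Pax6 of 3 Pax genes, and Pou4f1 and Pou4f2 of 3 POU class 4 genes. None of the 7 LIM-homeodomain, 3 paired-like, 5 Iroquois and 2 sine oculis genes tested passed. In 8 of the 10, every Q140 animal lay above every WT animal. The exceptions were Pax6 and Pou4f2, in which 5 of 6 Q140 animals did. These 10 were picked by a test on the same reads, which favours genes that do not overlap. Over all 42 homeobox genes tested, 8 did not overlap with Q140 on top and 0 with WT on top. Over all genes tested the shares were 1.6% and 2%.

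The promoters of 5 of the 10 are shown because these genes are known from other tissues or from the embryo, lay under 1 CPM in every WT animal and had a single window. Pax2 was as low in WT and had 3 windows, of 7, 23 and 30 CG dinucleotides, which are not printed. RefSeq windows from 250 bases before to 50 after a start site (build GRCm38.p6) were found for 43 of the 56 genes, 51 windows in all. Printed here, 5′ to 3′ on the gene's strand, are the bases before the first exon, with each CG dinucleotide in capitals, from chr14:104468000-104468249 (minus strand) for Pou4f1, chr8:78436648-78436897 (minus strand) for Pou4f2, chr5:147188446-147188695 (plus strand) for Gsx1, chr12:56613285-56613534 (minus strand) for Nkx2-9 and chr13:48662786-48662997 (plus strand) for Barx1.
Pou4f1: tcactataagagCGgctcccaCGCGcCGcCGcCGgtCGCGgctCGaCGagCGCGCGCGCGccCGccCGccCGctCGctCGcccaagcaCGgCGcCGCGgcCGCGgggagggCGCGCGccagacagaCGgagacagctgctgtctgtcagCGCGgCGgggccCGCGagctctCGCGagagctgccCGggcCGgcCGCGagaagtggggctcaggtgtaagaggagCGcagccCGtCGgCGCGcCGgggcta
Pou4f2: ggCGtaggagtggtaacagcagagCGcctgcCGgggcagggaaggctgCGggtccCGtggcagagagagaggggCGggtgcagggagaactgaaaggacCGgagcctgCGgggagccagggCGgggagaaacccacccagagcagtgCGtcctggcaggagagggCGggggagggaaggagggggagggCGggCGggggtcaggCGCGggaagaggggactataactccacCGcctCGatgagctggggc
Gsx1: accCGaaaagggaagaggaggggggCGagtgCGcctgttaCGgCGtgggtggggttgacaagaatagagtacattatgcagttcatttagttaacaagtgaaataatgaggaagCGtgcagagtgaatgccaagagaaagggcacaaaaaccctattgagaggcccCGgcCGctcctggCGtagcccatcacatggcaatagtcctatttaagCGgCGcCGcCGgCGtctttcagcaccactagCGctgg
Nkx2-9: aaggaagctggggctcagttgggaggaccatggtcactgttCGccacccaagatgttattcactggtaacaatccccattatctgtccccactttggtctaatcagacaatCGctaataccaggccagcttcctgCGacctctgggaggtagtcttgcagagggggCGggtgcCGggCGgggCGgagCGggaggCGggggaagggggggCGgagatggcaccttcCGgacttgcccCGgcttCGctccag
Barx1: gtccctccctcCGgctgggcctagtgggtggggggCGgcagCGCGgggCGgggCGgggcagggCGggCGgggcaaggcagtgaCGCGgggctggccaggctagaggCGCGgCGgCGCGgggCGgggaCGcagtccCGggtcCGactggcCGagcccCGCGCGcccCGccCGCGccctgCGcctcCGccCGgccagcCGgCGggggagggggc
The stretches of Pou4f1 and Barx1 hold 47 CG in 250 bases and 31 CG in 212 bases, and those of Pou4f2, Gsx1 and Nkx2-9 hold 17, 15 and 13 CG in 250 bases. Over the full 300 bases, Pou4f1 had 57 CG, a number that 0.152% of all 32851 windows reach, and Barx1 had 50, which 0.855% reach. Gsx1 with 19 CG, Pou4f2 with 18 and Nkx2-9 with 15 were nearer the usual range, with 28.1%, 29.7% and 34.6% of all windows at or above them.

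The homeobox genes as a whole had a median of 18 CG per window, against 7 over all windows. The 12 windows of the 9 risen genes that could be matched had a median of 18.5, and the 39 windows of the other 34 genes had 18. At least 20 CG were found in 45.1% of the homeobox windows and in 26.5% of all windows. On either strand, the TATA box core TATAAA was in 7.84% of homeobox windows against 13.6% of all, none of them a risen gene. The homeodomain core TAATTA was in 9.8% against 5.29%. The opening letters of the binding site of the repressor REST, TTCAGCACC, were in 2 homeobox windows, those of Gsx1 and Lhx3, or 3.92% against 0.371% of all. In the Gsx1 sequence above they stand near the 3′ end as ttcagcacc.

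Nkx2-9 (ENSMUSG00000058669, chr12:56611389-56613284, GRCm38) encodes an NK2 factor of the ventral neural tube. It had 1.35, 1.53 and 1.66 CPM as the lowest, median and highest value in Q140 animals, against 0.269, 0.524 and 0.720 CPM in WT animals. The 2 groups lay far apart, with a wide gap between the highest WT and the lowest Q140 animal. The mean was 1.51 ± 0.140 CPM in Q140 and 0.499 ± 0.160 CPM in WT (SD, n = 6 each), and the log2 fold change was 1.58 (SE 0.20, adjusted p = 0.000239 by edgeR). It had the smallest p of the homeobox genes. An unclassified transcript 913 bases away on the same strand, Gm38103, had 78 reads in Q140 and 33 in WT (log2 fold change 1.1, adjusted p = 0.0818).

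The POU class 4 genes, which specify sensory neurons, are close to silent in WT piriform cortex. Pou4f1, known from the medial habenula and the dorsal root ganglia (ENSMUSG00000048349, chr14:104461676-104467999), had 0.519, 0.749 and 1.01 CPM as the lowest, median and highest value in Q140 animals, against 0, 0.108 and 0.292 CPM in WT animals. All 6 Q140 animals lay above all WT animals, and the log2 fold change was 2.55 (SE 0.38, edgeR adjusted p = 0.000814). Pou4f2, the factor of retinal ganglion cells (ENSMUSG00000031688, chr8:78433010-78436645), had 40 reads in Q140, in all 6 animals, and 3 reads in WT, in 2 animals. That is a ratio, scaled by library size, of 12.3 with a 95% counting interval from 3.91 to 62.0 (edgeR adjusted p = 0.0205). Its highest animal, Q140 4, had 0.577 CPM, and the other Q140 animals had 0.0575 to 0.186 CPM. Without Q140 4 the adjusted p was 0.0547, without WT 2 it was 0.0544 and without WT 3 it was 0.0578. Pou4f3, the hair cell factor, had 9 reads in Q140 and 3 in WT, a ratio of 2.76 with an interval from 0.689 to 15.8, and did not pass.

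Barx1, a factor of stomach mesenchyme and of the molar teeth (ENSMUSG00000021381, chr13:48662998-48666507), had reads in every Q140 animal and in no WT animal. Its levels were 0.0289, 0.301 and 0.645 CPM as the lowest, median and highest Q140 value, with 49 reads in all against 0 in WT. Its ratio to a floor of 3 counts over the WT group was 15.0, without the counting error of the Q140 reads. Barx1 passed between genotypes (edgeR adjusted p = 0.00476). The lowest animal, Q140 4, had a level under the floor of its own library. Its paralog Barx2 had 1.11, 1.61 and 2.04 CPM in Q140 animals, against 1.27, 1.55 and 2.52 CPM in WT animals, and did not pass (log2 fold change -0.08, SE 0.20, adjusted p = 0.878).

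Gsx1, a factor of the embryonic ventral forebrain and spinal cord (ENSMUSG00000053129, chr5:147188696-147190947), had 0.519, 1.14 and 1.6 CPM as the lowest, median and highest value in Q140 animals, against 0.101, 0.290 and 0.446 CPM in WT animals. The groups did not overlap, and the log2 fold change was 2.07 (SE 0.30, edgeR adjusted p = 0.000803). Its paralog Gsx2, of the lateral ganglionic eminence, overlapped between the genotypes with 0.904 ± 0.267 CPM in Q140 and 0.590 ± 0.423 CPM in WT and did not pass (log2 fold change 0.60, SE 0.38, adjusted p = 0.387).

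Pax2 and En2 mark the embryonic boundary of midbrain and hindbrain. Pax2 (ENSMUSG00000004231, chr19:44756045-44837871) had 0.744, 1.16 and 2.36 CPM as the lowest, median and highest value in Q140 animals, against 0.276, 0.397 and 0.706 CPM in WT animals, and its log2 fold change was 1.58 (SE 0.29, adjusted p = 0.00382 by edgeR). En2 (ENSMUSG00000039095, chr5:28165694-28172166) had 1.47, 1.97 and 2.68 CPM in Q140 animals, against 0.679, 1.08 and 1.17 CPM in WT animals in the same order, and its log2 fold change was 1.02 (SE 0.20, adjusted p = 0.00523 by edgeR). For both genes every Q140 animal exceeded every WT animal, although the lowest Q140 and the highest WT value of Pax2 were close. Of other genes known from that boundary, Gbx2, described below, had more reads in Q140 and did not pass, and Lmx1b, which is not among the 56, averaged 3.18 ± 1.63 CPM in Q140 and 0.250 ± 0.146 CPM in WT (SD, n = 6 each). Reads were few for the others, with Pax5 at 22 reads in Q140 and 17 in WT, En1 at 2 reads in Q140 and 0 in WT, and Pax8 at 1 read in Q140 and 3 in WT. Markers of mature midbrain and hindbrain neurons and of cerebellar granule cells summed to between 1.48 and 2.42 CPM in Q140 animals and between 1.45 and 2.42 CPM in WT animals. Of the 5 tested markers 0 passed in either direction by edgeR, with 1 (Slc6a5, higher) at an unadjusted p below 0.05, and the 6th, the granule cell gene Gabra6, was at 0 in all 12 animals.

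Pax6, Nkx2-2 and Nkx6-2 had higher levels and smaller changes. Pax6, known from cortical progenitors, the eye and olfactory bulb interneurons (ENSMUSG00000027168, chr2:105668900-105697364), had 14.6, 18.4 and 22.0 CPM as the lowest, median and highest value in Q140 animals, against 10.3, 12.8 and 15.6 CPM in WT animals. The ranges overlapped through Q140 5 and WT 4 and 5, and the log2 fold change was 0.52 (SE 0.11, edgeR adjusted p = 0.00785). Nkx2-2, which drives oligodendrocyte differentiation (ENSMUSG00000027434, chr2:147177546-147194243), had 5.56, 6.62 and 9.45 CPM in Q140 animals, against 4.07, 5.0 and 5.37 CPM in WT animals (log2 fold change 0.55, SE 0.12, edgeR adjusted p = 0.0105). Nkx6-2, of mature oligodendrocytes (ENSMUSG00000041309, chr7:139579376-139582797), had 10.1, 12.9 and 15.2 CPM in Q140 animals, against 5.55, 8.92 and 9.74 CPM in WT animals (log2 fold change 0.60, SE 0.13, edgeR adjusted p = 0.0113). Neither Nkx gene overlapped between the genotypes, but the gap was narrow for both. Exons of both overlap a gene on the opposite strand, Nkx2-2os and Inpp5a, and without a stated strand setting for the counting the reads of 2 such partners cannot be told apart. Inpp5a, with far more reads than Nkx6-2, had a log2 fold change of -0.06 (adjusted p = 0.575), and Nkx2-2os had 0.25 (adjusted p = 0.454).

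Of the markers of mature oligodendrocytes, 4 of 10 (Mog, Cnp, Mag and Ermn) rose and 0 fell, against 3.15% and 4.47% of all genes. The list summed to between 4143 and 5900 CPM in Q140 animals and between 3644 and 5171 CPM in WT animals, so the sums overlapped. The list of oligodendrocyte precursors had 0 of 6 passing by edgeR and 0 at an unadjusted p below 0.05. With the mean of the mature list as a covariate, 5 homeobox genes still passed and 5 did not. The log2 fold change was then 0.29 for Nkx6-2 (adjusted p = 0.175), 0.43 for Nkx2-2 (0.151), 0.31 for Pax6 (0.172), 0.76 for En2 (0.117) and 3.18 for Pou4f2 (0.166). Over all genes that fit called 151 higher, against 748 without the covariate. Nkx2-9, Gsx1, Pou4f1 and Pax2 passed in 12 of 13 alternative fits, and Barx1 in 10 of the 11 in which it could be tested. The exception is the fit with the number in the animals' names as a block, in which 0 of the 10 genes passed by edgeR and 3 residual degrees of freedom remain. All 10 had an unadjusted p below 0.05 there, and the share of all genes at that level in that fit was not computed.

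**Figure D2:**
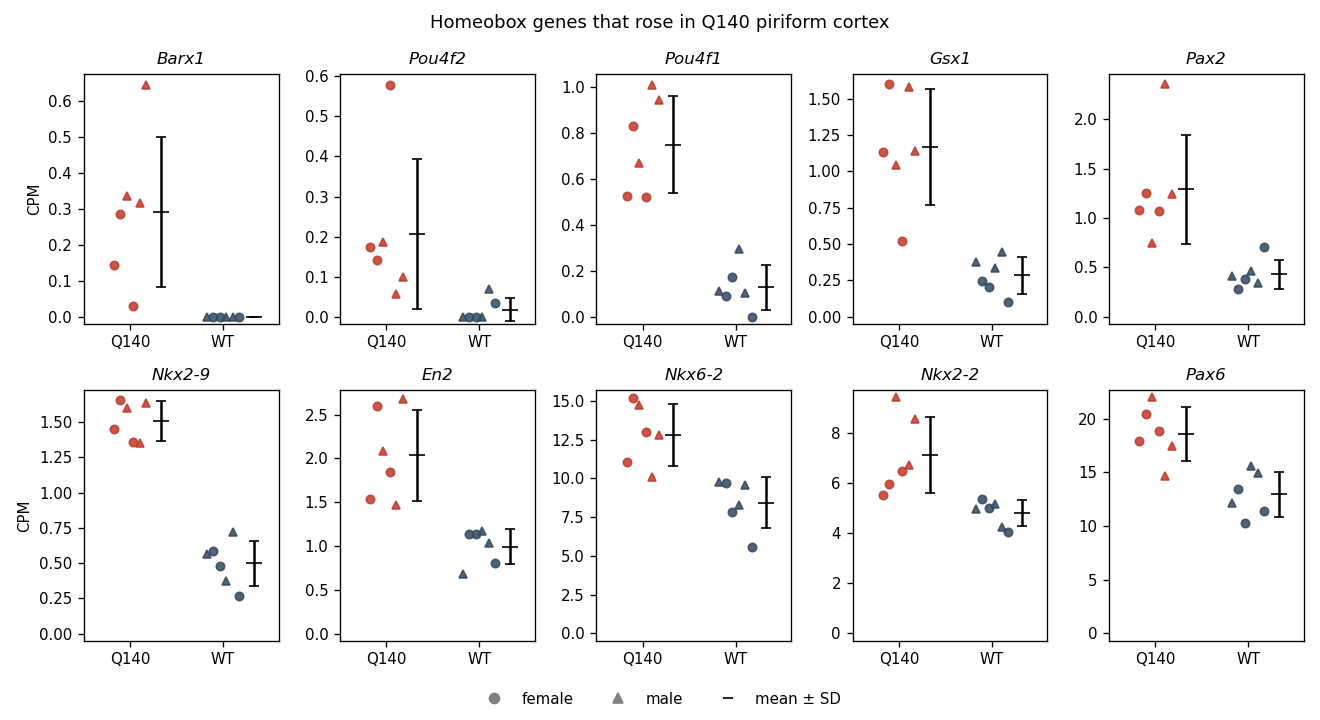
Level in CPM of the 10 homeobox genes that rose, for each Q140 and WT animal, with circles for females, triangles for males and bars for mean and SD (n = 6 each). Each panel has its own axis that starts just under 0. In all panels except Pax6 and Pou4f2 the Q140 animals lie wholly above the WT animals, and Barx1 is at 0 in all 6 WT animals.

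The names of the animals carry prefixes whose meaning the labels do not give: RFckQ for 1 Q140 and 4 WT animals, RFQ for 3 Q140 and 1 WT, FMQ for 1 WT and none for 2 Q140. No prefix holds enough animals for a test within it. With the prefix as a covariate 11 homeobox genes passed, the additional one being Gbx2. In that fit the FMQ animal, WT 6, shared a level with the 2 Q140 animals without a prefix. They are therefore compared with WT 6, which had no Gbx2 read. Over all genes that fit called 321 higher and 653 lower.

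Emx1 and Barhl2 were the homeobox genes closest to a fall. Emx1, a marker of the cortical excitatory lineage, had 7.51, 11 and 16.3 CPM as the lowest, median and highest value in Q140 animals, against 12.6, 13.9 and 16.6 CPM in WT animals. Its log2 fold change was -0.35 (SE 0.10, edgeR adjusted p = 0.0558), and 5 Q140 animals lay below the WT mean. It passed without Q140 6 (adjusted p = 0.0137) and without WT 4 (0.0321). Barhl2, which in the embryo acts in the diencephalon, retina and spinal cord, had 0.524, 0.923 and 2.13 CPM in Q140 animals, against 0.857, 2.01 and 2.45 CPM in WT animals (log2 fold change -0.85, SE 0.30, edgeR adjusted p = 0.106). The groups overlapped in Q140 5 and WT 5, and it passed without either (adjusted p = 0.0155 and 0.0231). The summed excitatory neuron markers, given above, were lower in Q140 as well. Most of that sum is Camk2a, at 2788 ± 206 CPM in Q140 and 3705 ± 487 CPM in WT (SD, n = 6 each). The mean of the list on the log2 scale, in which each marker counts alike, overlapped between the genotypes, from -0.28 to 0.03 in Q140 animals and from -0.35 to 0.56 in WT animals. Within genotypes Emx1 and the list mean had r = 0.20 over the 12 animals (adjusted permutation p = 0.432), and r = 0.55 without WT 5 and WT 6. The other cortical factors were close between genotypes. Emx2, which patterns cortical areas, had 15.4, 19.6 and 20.1 CPM in Q140 animals, against 17.6, 18 and 19.9 CPM in WT animals (log2 fold change 0.02, SE 0.07). Otx1, of deep cortical layers, had 5.43, 6.32 and 7.96 CPM in Q140 animals, against 4.04, 5.6 and 6.41 CPM in WT animals (log2 fold change 0.22, SE 0.11, adjusted p = 0.264).

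Per transcript length, the genes with the highest levels in Q140 were Nkx6-2 at 6.81 ± 1.05, Emx2 at 6.32 ± 0.604, Emx1 at 5.31 ± 1.53 and Dbx2 at 4.95 ± 0.635, in the authors' FPKM (SD, n = 6). In WT, Emx1 stood at 6.4 ± 0.666, Emx2 at 6.04 ± 0.282, Dbx2 at 4.50 ± 0.378 and Nkx6-2 at 4.37 ± 0.867 FPKM. In WT every animal's Emx2 value, 5.70 FPKM or more, lay above every Dbx2 value, 5.16 FPKM or less, while Emx1 and Emx2, and Dbx2 and Nkx6-2, overlapped. In Q140 the values of neighbours in the order overlapped. Next came Nkx2-2 at 2.53 ± 0.586 FPKM in Q140 and 1.65 ± 0.181 in WT, and Isl1, Six3, Pax6 and Otx1 between 1.20 and 2.06 FPKM in Q140 and between 0.994 and 1.14 FPKM in WT. Nkx2-9 had 1.21 ± 0.117 FPKM in Q140, level with Otx1 there at 1.20 ± 0.197, and 0.390 ± 0.128 in WT. Gsx1 had 0.670 ± 0.229 FPKM in Q140 and 0.159 ± 0.0711 in WT, and En2 had 0.584 ± 0.149 in Q140 and 0.276 ± 0.0569 in WT. Pou4f1 had 0.163 ± 0.0473 FPKM in Q140 and 0.0272 ± 0.0207 in WT. Dbx2, a factor of the embryonic ventral neural tube, had 13.9, 17.4 and 20.0 CPM in Q140 animals, against 14.4, 15.4 and 18 CPM in WT animals, and did not pass (log2 fold change 0.10, SE 0.08).

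**Figure D3:**
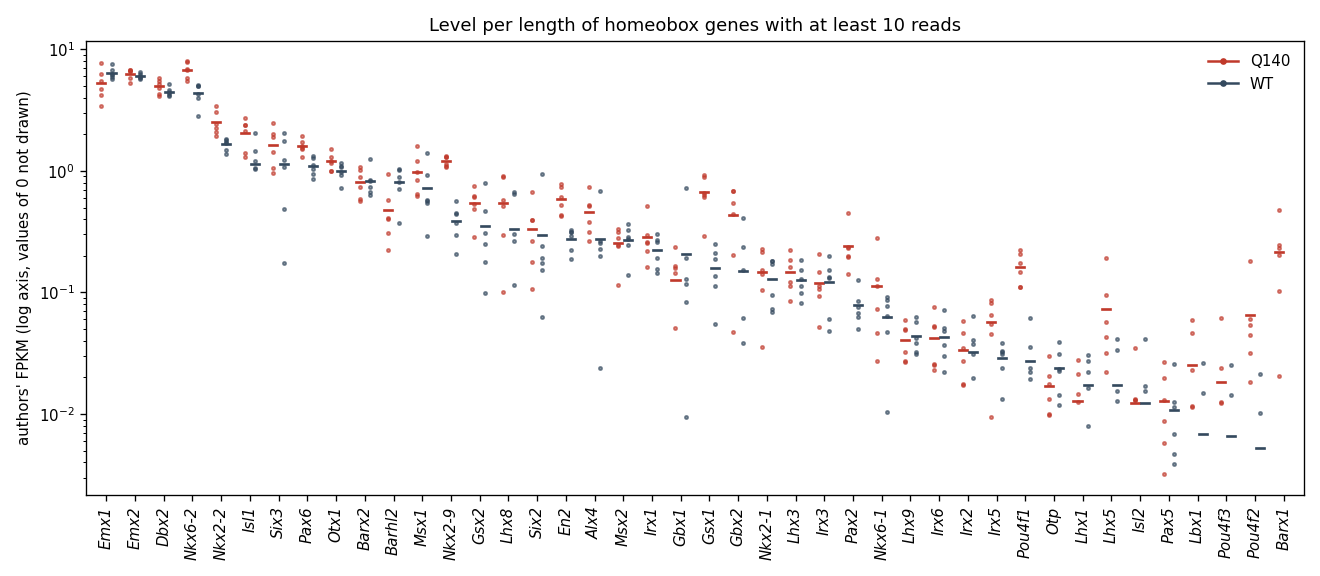
The authors' FPKM, which is reads per transcript length and library total, on a log axis, for the 42 homeobox genes with at least 10 reads, ordered by their WT mean. Points are animals (Q140 left, WT right), bars are means over 6 animals, and values of 0 are not drawn. Emx1, Emx2, Dbx2 and Nkx6-2 lead both genotypes, and Barx1 has no WT value above 0.

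Several homeobox genes that remain on in neighbouring forebrain regions varied widely within each genotype. Isl1, of striatal direct pathway neurons, had 5.03, 8.78 and 10.9 CPM as the lowest, median and highest value in Q140 animals, against 0, 4.59 and 8.16 CPM in WT animals (log2 fold change 0.83, SE 0.45, edgeR adjusted p = 0.300). Six3, which specifies striatal indirect pathway neurons, had 5.06, 8.91 and 13.4 CPM in Q140 animals, against 0.975, 6.41 and 11.4 CPM in WT animals (log2 fold change 0.46, SE 0.38, adjusted p = 0.534). Lhx8, of forebrain cholinergic neurons, had 0.248, 1.34 and 2.31 CPM in Q140 animals, against 0, 0.736 and 1.72 CPM in WT animals (log2 fold change 0.66, SE 0.54, adjusted p = 0.534). For all 3 genes the lowest animal was WT 6, the animal with the least striatal marker RNA. Gbx2, which specifies thalamic neurons, had 187 reads in Q140 and 58 in WT, none of them in WT 6, and did not pass (log2 fold change 1.43, SE 0.59, adjusted p = 0.168). Without WT 5 its adjusted p was 0.0346. Nkx2-1, of the medial ganglionic eminence, had 80 reads in Q140 and 64 in WT (adjusted p = 0.842).

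Whether such genes followed the markers of the cells they are known from was examined over the 12 animals, as deviations from the genotype mean on the log2 CPM scale, for 16 pairs of a gene and a marker list. Of these, 10 passed on Pearson's r by permutation within genotype, adjusted over the 16. Six3 followed the striatal list most closely, with r = 0.98 (permutation p = 5e-05, adjusted 0.0008) and rho = 0.88 (p = 0.00109, adjusted 0.00725), and r = 0.95 without Q140 6 and WT 6. Isl1 with the same list had r = 0.86 (adjusted permutation p = 0.00224) and rho = 0.69 (adjusted 0.00725), and r = 0.65 without the same animals. Gsx2 with it had r = 0.77 (adjusted permutation p = 0.0286), and 0.67 without the same animals, but its rho of 0.60 did not pass (adjusted 0.114). Lhx8 followed the basal forebrain cholinergic list with r = 0.91 (adjusted permutation p = 0.00184) and rho = 0.96 (adjusted 0.00064), and r = 0.87 without WT 4 and WT 6. Gbx1 (r = 0.79, adjusted permutation p = 0.0032) and Nkx2-1 (r = 0.75, adjusted 0.00224) followed it too, with r = 0.73 and 0.74 without those animals. With the striatal list mean as a covariate of the genotype fit, Six3 (log2 fold change 0.85, edgeR adjusted p = 0.000176), Isl1 (1.25, adjusted p = 0.00638), Lhx8 (1.37, adjusted p = 0.0156) and Gbx2 (2.52, adjusted p = 0.000187) passed as higher in Q140, and Emx1 passed as lower (-0.36, adjusted p = 0.0238). That fit called 14 homeobox genes higher and 1 lower. Calls grew over all genes too, to 1083 higher and 1408 lower, against 748 and 1062 without the covariate. Six3, Isl1 and Lhx8 each passed in this fit alone, 1 of 13 alternatives. Their lowest log2 fold changes over the 13 were -0.19, 0.14 and 0.25. Gbx2 passed in 3 of the 13 and Emx1 in 4. The striatal list itself had 0 of 13 members passing by edgeR, 1 of them (Scn4b, lower) at an unadjusted p below 0.05.

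Nkx6-2 followed the mature oligodendrocyte list with r = 0.89 (adjusted permutation p = 0.00363) and rho = 0.71 (adjusted 0.0358), and r = 0.60 without Q140 5 and WT 6. Nkx2-2 did not pass with that list (r = 0.48, adjusted permutation p = 0.154, and r = 0.49 without those animals). Genes of the craniofacial mesenchyme followed the meningeal list: Alx4 had r = 0.94 (adjusted permutation p = 0.00224) and Msx1 had r = 0.86 (adjusted 0.0045), or 0.71 and 0.66 without WT 3 and WT 4. Alx4 had 1.83, 3.17 and 5.06 CPM as the lowest, median and highest value in Q140 animals, against 0.172, 1.73 and 4.85 CPM in WT animals. Msx1 had 1.94, 2.78 and 4.84 CPM in Q140 animals, against 0.930, 1.80 and 4.34 CPM in WT animals. Both had their lowest value in WT 3, and neither passed between genotypes (adjusted p = 0.268 and 0.441). Gbx2 with the thalamic list had r = 0.63 (adjusted permutation p = 0.0319), which fell to 0.27 without WT 5 and WT 6, so that relation rests on those animals. Emx1, Emx2 and Otx1 with the excitatory list, Lhx9 with the thalamic list and Pax6 with the olfactory bulb list did not pass, with r between -0.59 and 0.32, and between -0.35 and 0.55 without the 2 animals farthest from the median of the list.

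**Figure D4:**
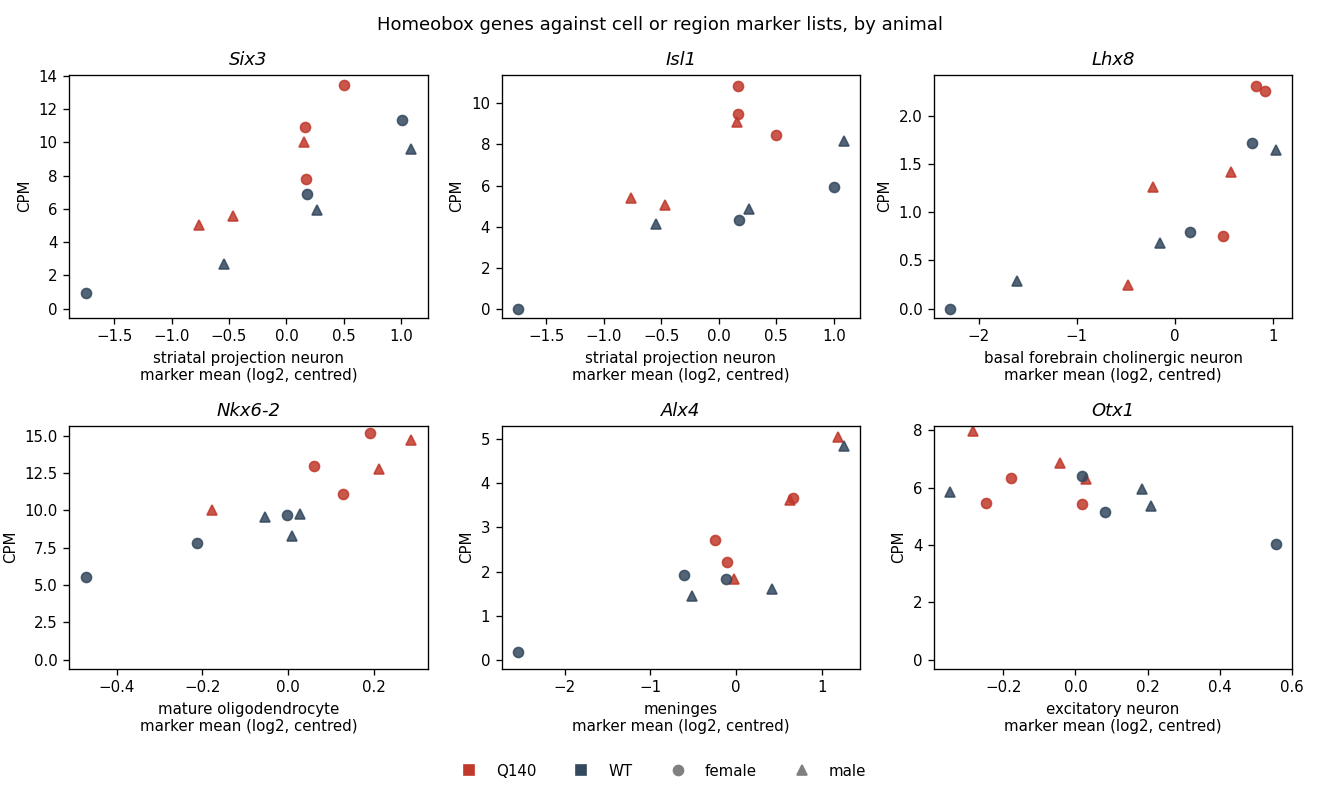
CPM of a homeobox gene against the mean of a marker list (log2 CPM, centred on all 12 animals) for 6 of the pairs examined, with Q140 in red, WT in blue, circles for females and triangles for males. Six3, Isl1, Lhx8, Nkx6-2 and Alx4 rise with their list in both genotypes, and Otx1 does not pass with the excitatory list.

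Within the sexes, 8 homeobox genes passed in females, 6 of them higher in Q140, and 4 passed in males, all higher. Over all genes, 4.68% passed in females, 2% as higher and 2.67% as lower, and 1.02% in males, 0.316% as higher and 0.707% as lower. Higher in females were Nkx2-9 (log2 fold change 1.73), Gsx1 (2.52), Pou4f1 (2.77), Pou4f2 (4.32), Pax6 (0.70) and Nkx6-2 (0.76), and lower were Emx1 (-0.55, edgeR adjusted p = 0.0267) and Barhl2 (-1.51, adjusted p = 0.0319). Higher in males were Nkx2-9 (1.43), Pou4f1 (2.38), Nkx2-2 (0.78) and Barx1, which had reads in all 3 Q140 males and no WT male. The difference of the Q140 effect between females and males passed for 0 of 42 homeobox genes and for 0% of all genes by edgeR. For Barx1, without a WT read, it could not be estimated. In simulated data below 1 CPM, where 26 of the 42 genes lay, 12.5% of 4-fold and 7.14% of 8-fold differences were recovered, so most would be missed. At an unadjusted p below 0.05 the difference was called for 4 (Barhl2, Gbx2, Emx1 and Nkx2-2), against 8.06% of all genes. The smallest of these was Barhl2, with a difference of -1.31, females minus males, in the log2 fold change (SE 0.52) and an adjusted p of 0.581. The count in females was 2 without Q140 2, 3 without WT 3 and 5 without Q140 1 or WT 6. The count in males was 0 without Q140 6, WT 1 or WT 5, 1 without Q140 3, and 2 without Q140 1, Q140 2 or WT 4, and it was 0 in a fit of the males alone.

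**Figure D5:**
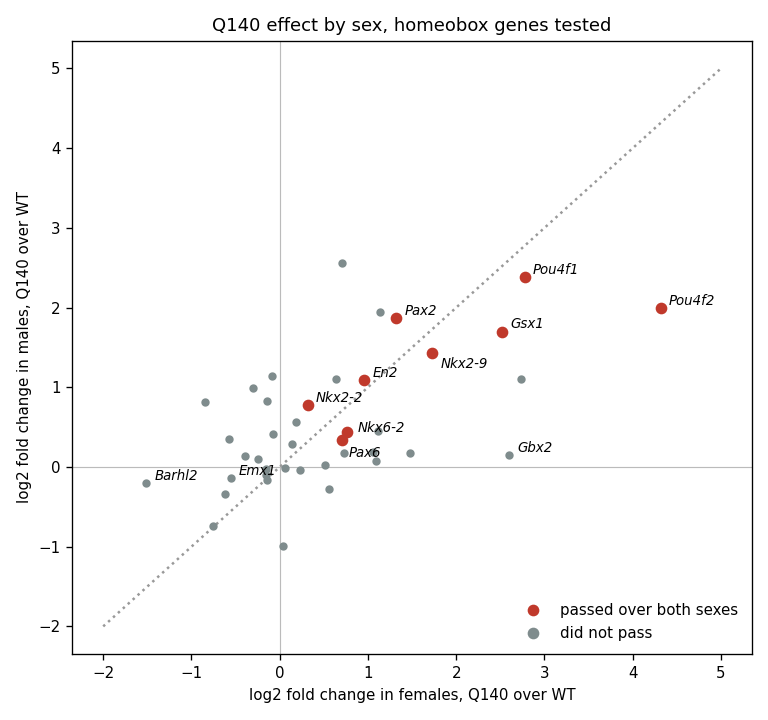
Log2 fold change, Q140 over WT, in females (x axis) and in males (y axis) for 41 homeobox genes tested, without Barx1, whose fold has no WT reads to rest on. Red points passed over both sexes, grey points did not, and the dotted line marks equal effects. All 9 red points are above 0 in both sexes, and Barhl2 and Gbx2 lie away from the line.

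The remaining genes were low. Lhx5, known from the cortical hem and the hypothalamus, had 36 reads in Q140 and 8 in WT, a ratio, scaled by library size, of 4.14 with a counting interval from 1.89 to 10.3. It did not pass between animals (edgeR adjusted p = 0.127), and Q140 1 alone held 0.524 CPM, against 0.0575 to 0.248 CPM in the other Q140 animals. Of the other LIM-homeodomain genes, Lhx3, of motor neurons and the pituitary, had 82 reads in Q140 and 67 in WT, and Lhx9 had 69 in Q140 and 71 in WT. Lhx1, of the early organizer and of Purkinje cells, and Isl2, of motor neurons, were near the limit of the test with 22 and 10 reads in all. Among NK and linked genes, Nkx6-1, of ventral progenitors and pancreatic beta cells, had 59 reads in Q140 and 34 in WT and did not pass (edgeR adjusted p = 0.435). Msx2 had 151 reads in Q140 and 153 in WT. Lbx1, of spinal interneurons and muscle precursors, had 12 reads in Q140 and 3 in WT, a ratio of 3.68 with an interval from 0.993 to 20.3. Of these genes other than Lhx5, Lbx1 had the smallest adjusted p by edgeR (0.310).

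The 5 Iroquois genes belong to a family that patterns the neural tube, the heart and other organs. Irx1 had 119 reads in Q140 and 93 in WT, Irx3 had 58 in Q140 and 59 in WT, and Irx5 had 31 in Q140 and 16 in WT, while Irx2 and Irx6 had 38 and 51 reads in all. In Irx5, 5 of 6 Q140 animals lay above the highest WT animal, and it did not pass (log2 fold change 0.85, SE 0.47, edgeR adjusted p = 0.322). Six2, of kidney progenitors and facial mesenchyme, had 126 reads in Q140 and 101 in WT (adjusted p = 0.830). Gbx1 had 87 reads in Q140 and 135 in WT, of which WT 2 alone held the most, and Otp, of the hypothalamus, had 9 in Q140 and 12 in WT.

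Of the 10 genes with 1 to 9 reads, Tlx3, of spinal sensory neurons, had 5 reads in 3 Q140 animals and 0 in WT. Its ratio to a floor of 3 counts over the WT group was 1.53, without the counting error of the 5 reads. The exact permutation p was 0.182, so a rise was not shown. Phox2a, of autonomic neurons, had 5 reads in Q140 and 2 in WT, a ratio of 2.30 with an interval from 0.376 to 24.1. Lhx4 had 3 reads in Q140 and 1 in WT, Otx2 had 3 in Q140 and 2 in WT, and Barhl1 had 2 in Q140 and 3 in WT. Tlx1, Lmx1a and Pax7 had 1 or 2 reads in all, and En1 and Pax8 are given above. With so few reads a difference between genotypes was not seen in Phox2a, Lhx4, Otx2 and Barhl1, and a small one could have been missed.

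Within 10000 bases of the homeobox genes, 35 annotated neighbours were tested. Of these, 3 rose and 0 fell by edgeR, against 3.15% and 4.47% of all genes. These were Crnde, a divergent noncoding transcript 1505 bases from Irx5 (log2 fold change 0.85, SE 0.13, adjusted p = 0.00102), Gm12462, antisense within Pax5 (1.79, SE 0.52, adjusted p = 0.0458), and Ext2, which overlaps Alx4 (0.16, SE 0.04, adjusted p = 0.0364). Of the 8 tested neighbours of the 10 risen genes 0 passed by edgeR, and 1, Gm38103 beside Nkx2-9, had an unadjusted p below 0.05.

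The shares to set beside the lists below are 3.15% higher and 4.47% lower over all genes tested. Among other developmental homeobox genes outside the Hox clusters, 36 of 64 found in the table were tested. Of these, 4 rose and 0 fell, with a median log2 fold change of 0.22. The 4 were Onecut1 (2.7, SE 0.28, edgeR adjusted p = 5.39e-05), Lmx1b (3.65, SE 0.42, adjusted p = 0.000127), Onecut2 (2.34, SE 0.30, adjusted p = 0.000248) and Shox2 (4.74, SE 0.69, adjusted p = 0.000715). Of 34 homeobox genes normally on in the mature forebrain, all tested, 2 rose and 5 fell, with a median log2 fold change of -0.0096. Pou2f2 had -0.57 (adjusted p = 6.03e-05), Prox1, of dentate granule cells, 0.37 (0.00395), and Cux2, of upper cortical layers, -0.31 (0.0129). The lists of partner proteins are short, and 1 or 2 calls in a list are too few to set apart from the shares over all genes. Of 11 TALE genes, 1 rose and 1 fell: Meis1 had a log2 fold change of 0.36 (adjusted p = 0.0198) and Pknox2 of -0.33 (0.00249). Of 10 LIM cofactors 0 rose and 2 fell, Lmo3 (-0.35, adjusted p = 0.0367) and Lmo1 (-0.41, 0.0469), while Lmo4 (-0.24, 0.0625) and Ssbp4 (-0.15, 0.0914) did not pass. Of 6 Groucho genes Tle4 rose (0.26, adjusted p = 0.0287) and Tle2 fell (-0.38, 0.0271), with Tle3 (-0.14, 0.0994) and Tle1 (-0.18, 0.110) not passing. Of 6 cofactors of the sine oculis family Eya4 rose (0.45, adjusted p = 0.0391).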

How the data were processed

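RNA-seq libraries were made from piriform cortex with a Qiagen RNeasy kit and the Illumina TruSeq stranded preparation, all on plate 1, per the labels' protocols. The deposited counts are whole reads of each gene, as the authors counted them. Tools named in the submitters' processing notes are HTSeq 0.12.3, SAMtools 1.10 and STAR 2.7.5c, and the builds are mm10 and GRCm38, without a role for either. Strand setting and annotation release: not given in the sources used here. The deposited FPKM values were made by the authors and are used for levels between genes only. They carry no correction for library composition.

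Genes with at least 10 reads over the 12 libraries, whatever the genotype, were tested on the counts with edgeR 4.0.16 (quasi-likelihood, TMM, sex as a covariate, R 4.3.3), with two-sided Benjamini-Hochberg values over all genes tested and a threshold of 0.05. SE is the log2 fold change divided by the root of F. Effects within the sexes and their difference came from contrasts between the 4 combinations of genotype and sex. CPM uses TMM-scaled library sizes. The fits were tested on simulated data. Below 1 CPM the genotype fit recovered 4.76% of 21 genes changed 1.5-fold and 0% of 18 changed 2-fold. It recovered 37.5% of 8 changed 4-fold and 50% of 14 changed 8-fold. Shares from so few genes are rough. Of the 160 calls of that fit over genes of all levels, 14 were false, a larger share than the threshold of 0.05. Ratios of pooled reads, scaled by library size, have exact binomial 95% intervals, which cover counting error only. For genes without a WT read the ratio is to a floor of 3 counts over the WT group. That ratio leaves out the counting error of the Q140 reads and is not a 95% limit. Exact permutation tests over 924 regroupings of 6 against 6 cannot go below p = 0.00216. Relations to marker lists used 100000 resamples within genotype of log2 CPM (prior count 2). P-values measure the spread between animals. Positions and neighbours came from GENCODE M21 (GRCm38), and promoter windows from RefSeq (GRCm38.p6).

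Values by animal are given for genes that passed, that did not overlap between genotypes or that averaged 1 CPM or more, and up to 4 genes per partner list are named by smallest unadjusted p below 0.05. A gene that this rule names is not reported here. The members and lists were chosen with earlier results of these data known. Alternatives were other size factors, filters and covariates, DESeq2 1.42.0 and each animal left out. Covariates of the choroid plexus and basal forebrain cholinergic lists and a block for the number in the animals' names were added after the data were seen.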

Additional observations from a re-analysis of the deposited data

Results flagged for a closer look

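In 84 groups of 6 animals, 6 had 1 animal far from the rest by Dixon's test, which by chance flags about 1 group in 20. Among genes that rose, Pax2 was highest in Q140 5 at 2.36 CPM, with the other Q140 animals at 0.744 to 1.26 CPM, and Pou4f2 was highest in Q140 4 at 0.577 CPM, with the others at 0.0575 to 0.186 CPM. WT 4 had 4.85 CPM of Alx4, with the other WT animals at 0.172 to 1.92 CPM, and 2.01 CPM of Six2, with the others at 0.138 to 0.521 CPM. Meningeal markers were highest in that animal among WT animals, and their part in these values was not tested for Six2. WT 2 had 2.54 CPM of Gbx1, with the others at 0.0336 to 0.689 CPM. WT 6 had 2.52 CPM of Barx2, with the others at 1.27 to 1.65 CPM.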

How the results depend on the processing

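No homeobox gene that passed changed direction under any alternative. Over all genes, 748 were higher and 1062 lower in Q140. With library totals alone these were 1365 and 755, with the name prefix 321 and 653, with the oligodendrocyte list as a covariate 151 and 339, with the meningeal list 359 and 631, and with the choroid plexus list 325 and 546. Leaving out 1 animal gave 375 to 1020 higher and 645 to 1274 lower, with the counts higher at 375 without Q140 2, 451 without Q140 3, 432 without WT 1 and 427 without WT 3, and the counts lower at 645 without Q140 2, 664 without WT 1 and 699 without WT 3. Homeobox genes higher numbered 10, and 5 with the oligodendrocyte list, 14 with the striatal list and 9 to 11 with 1 animal left out. They numbered 8 with edgeR's filter by genotype, which removes Barx1 and Pou4f2, and 8 with DESeq2, which gives those 2 no adjusted p. Homeobox genes lower numbered 0, and 2 with no filter or DESeq2 (Emx1 and Barhl2), 1 with edgeR's filter by genotype or the striatal list (Emx1), and 0 to 1 with 1 animal left out (1 without Q140 5, Q140 6, WT 4 or WT 5). Within females 8 passed, and 2 to 9 with 1 animal left out. Within males 4 passed, and 0 with the males alone and 0 to 5 with 1 animal left out. The difference between the sexes passed for 0 of them in all fits, 0 to 0 with 1 animal left out. Of single homeobox genes, Pou4f2 also lost its call with the meningeal list (adjusted p = 0.125) and the choroid plexus list (adjusted p = 0.0526), and Gbx2 gained one with the name prefix (adjusted p = 0.0229) and the cholinergic list (adjusted p = 0.0344). The cause of these changes was not tested, except that fewer genes or animals enter where a filter or a left-out animal removes them. Reads limit what can be seen in the genes under 10 reads and in the 26 tested genes with a mean below 1 CPM. At that level 0% of 18 genes changed 2-fold and 50% of 14 changed 8-fold were recovered in simulated data. The animals' names carry numbers whose meaning the labels do not give, and 2 of them, 150 (Q140 4 and WT 3) and 161 (Q140 3, Q140 5 and WT 4), occur in both genotypes. Deviations from the genotype mean correlated across genes at 0.0022 for Q140 4 and WT 3. The values were 0.19 for Q140 3 and WT 4 and 0.13 for Q140 5 and WT 4. Animals with other numbers had -0.21 to 0.17, so the value of Q140 3 and WT 4 lay above that range. So few pairs cannot decide whether animals with the same number are alike. The main fit does not take the numbers as pairs. With the number as a replicate block, chosen after the data were seen, genotypes are compared in these 5 animals with 3 residual degrees of freedom. Then 5 of all genes were higher and 7 lower, and 0 homeobox genes were higher and 0 lower by edgeR. At an unadjusted p below 0.05, 15 homeobox genes were higher, the 10 risen genes among them, and 0 were lower. The share of all genes at that level in this fit was not computed, so these counts have no background beside them. The log2 fold changes of the 10 risen genes lay between 0.50 (Pax6) and 6.45 (Pou4f2). Their edgeR adjusted p-values lay between 0.12 (Nkx2-9) and 0.603 (En2).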
